A study of Mus musculus with 2 samples.

Results

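Ibsp-expressing chondrocytes of the mouse knee were taken as cells with type II collagen transcripts, genes of the deeper cartilage zone and several transcripts of Ibsp, the gene of bone sialoprotein. They were 60 of the 15780 cells kept from 2 single-cell libraries, 31 in the trace library and 29 in the pulse library. Each had 20 or more unique molecular identifiers (UMIs, counted transcripts) of Col2a1, 3 or more of the 6 zone genes Matn3, Col9a1, Epyc, Cnmd, Prkg2 and Fxyd2 detected, 2 or fewer UMIs summed over 8 cell cycle genes, and 3 or more Ibsp UMIs. They were set against the 132 trace and 564 pulse cells that passed every other criterion and had no Ibsp UMI, called Ibsp 0 cells here. The cells were thus selected on their measured levels of Ibsp, Col2a1, the zone genes and the cell cycle genes, which are given as description only.

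Both libraries came from knee joint cartilage of Procr-CreER;tdTomato mice, in which a red fluorescent protein is turned on by tamoxifen where the promoter of Procr, the protein C receptor gene, is active, and stays on in descendant cells. All mice received tamoxifen at 4 weeks of age. The trace cells were taken 4 weeks after it and the pulse cells 2 days after it, and both were sorted as CD45-Ter119-CD31-DAPI-tdTomato+. The labels' protocol also speaks of periosteum cells. Each library pooled 3 mice with no mark of the mouse on a cell, so each group is 1 sample, replicate errors do not exist, and a test across samples was not possible. Intervals are exact 95% intervals that cover counting error only, Poisson for sums of UMIs and Clopper-Pearson for shares of cells. Age, time since tamoxifen and every other difference between the libraries cannot be told apart.

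Bone sialoprotein is a secreted, acidic phosphoprotein that binds calcium phosphate crystals and cell surface integrins. Osteoblasts make it, and so do cartilage cells next to mineralised matrix, such as hypertrophic chondrocytes of the growth plate and cells near the calcified layer of articular cartilage. Mineral forms there when tissue non-specific alkaline phosphatase, the product of Alpl, removes pyrophosphate, an inhibitor of crystal growth, while cells at the joint surface make the lubricant Prg4 and no mineral.

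Ibsp sits in a cluster of mineral-binding glycoprotein genes on chromosome 5, and 300 bases around its start are shown with those of 3 genes the results turn on, Spp1 (osteopontin), Bglap (osteocalcin) and Col10a1 (type X collagen). The sequences are RefSeq's for GRCm38.p6, 250 bases before to 50 after the start, on the strand of the gene. Capitals mark the core letters TGTGGT that Runx factors bind and the letters CCAAT, each searched on both strands, so that ACCACA and ATTGG are the same motifs read from the other strand.
Ibsp, chr5:104299037-104299336, plus strand: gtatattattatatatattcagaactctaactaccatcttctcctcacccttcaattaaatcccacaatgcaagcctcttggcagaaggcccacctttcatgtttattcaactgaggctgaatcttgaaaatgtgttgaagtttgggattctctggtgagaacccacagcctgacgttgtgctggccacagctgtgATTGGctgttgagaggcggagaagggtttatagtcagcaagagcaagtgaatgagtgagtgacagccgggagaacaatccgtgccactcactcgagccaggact
Spp1, chr5:104434861-104435160, plus strand: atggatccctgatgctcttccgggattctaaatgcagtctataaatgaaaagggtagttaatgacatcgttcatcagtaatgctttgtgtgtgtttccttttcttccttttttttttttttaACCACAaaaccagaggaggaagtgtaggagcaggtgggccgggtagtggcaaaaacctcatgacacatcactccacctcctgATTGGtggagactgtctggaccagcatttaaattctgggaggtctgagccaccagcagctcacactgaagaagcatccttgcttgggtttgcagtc
Bglap, chr3:88384417-88384716, minus strand: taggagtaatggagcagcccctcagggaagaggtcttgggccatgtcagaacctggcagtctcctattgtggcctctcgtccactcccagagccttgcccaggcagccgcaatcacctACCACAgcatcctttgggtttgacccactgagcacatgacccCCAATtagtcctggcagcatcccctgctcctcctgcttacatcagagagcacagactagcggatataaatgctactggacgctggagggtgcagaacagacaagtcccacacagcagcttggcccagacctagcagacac
Col10a1, chr10:34389731-34390030, plus strand: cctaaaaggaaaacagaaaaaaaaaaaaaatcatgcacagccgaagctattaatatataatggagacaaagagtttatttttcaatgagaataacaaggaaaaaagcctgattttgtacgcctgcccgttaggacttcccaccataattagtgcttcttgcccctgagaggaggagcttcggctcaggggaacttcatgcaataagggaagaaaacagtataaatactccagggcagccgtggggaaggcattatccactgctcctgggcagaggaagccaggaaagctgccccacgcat
TGTGGT stood at bases -128 to -123 from the start of Spp1 and at -132 to -127 of Bglap, and the Ibsp and Col10a1 windows held none. CCAAT stood at -54 to -50 of Ibsp, -46 to -42 of Spp1 and -90 to -86 of Bglap. Of 32851 promoter windows of the same length, 16.8% held TGTGGT and 37.4% held CCAAT.

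In the libraries as a whole, the trace sample had 10423 barcodes with 40284041 UMIs and the pulse sample 6863 barcodes with 23306063 UMIs. Cells with 500 or more detected genes and 10% or less mitochondrial UMIs were kept, 9247 in trace with a median of 3645 UMIs and 6533 in pulse with a median of 2837 UMIs. The libraries differed in sex-linked RNA, with 14149 Xist UMIs in trace and 3 in pulse, and 13 Ddx3y UMIs in trace and 4246 in pulse. Ribosomal RNA-associated transcripts took 8.89% of trace UMIs and 0.961% of pulse UMIs. The libraries shared 16 barcodes, none of an Ibsp-expressing cell.

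The Ibsp-expressing cells were as deep as the cells they were set against. The lowest, median and highest UMIs per cell were 1989, 7426 and 17544 in the 31 trace cells and 1396, 8094 and 26417 in the 29 pulse cells. The Ibsp 0 cells had medians of 7402 UMIs in trace and 7137 UMIs in pulse. Ibsp itself spread over a wide range, from 3 through a median of 37 to 463 UMIs per trace cell and from 3 through a median of 8 to 206 UMIs per pulse cell. Just inside the threshold were 4 trace and 3 pulse cells with exactly 3 Ibsp UMIs, and just outside it 9 trace and 5 pulse cells with 2.

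Among cells that passed the other criteria, 31 of 180 trace cells (17.2%, interval 12.0 to 23.5%) and 29 of 608 pulse cells (4.77%, 3.22 to 6.78%) had 3 or more Ibsp UMIs. With every cell thinned to 2000 UMIs the shares were 12.4% in trace and 3.05% in pulse. Endothelial cells, taken by 3 or more of 5 vessel markers and low Col2a1, should lack Ibsp, and 2 of 264 trace cells (0.758%) and 0 of 36 pulse cells (upper limit 9.74%) reached 3 UMIs, at medians of 2910 and 2487 UMIs per cell. Surface cells, taken by 20 or more Prg4 UMIs and at most 1 zone gene, reached it in 2.63% of 4820 trace cells and 1.93% of 1971 pulse cells. Osteoblast-rule cells were taken by 3 or more of Bglap, Bglap2, Ifitm5, Dmp1 and Phex detected, 20 or more Col1a1 UMIs and under 20 Col2a1 UMIs. They reached 3 Ibsp UMIs in 90.2% of 41 trace cells and 90.9% of 11 pulse cells. Whether the libraries' shares differ beyond the spread between mice was not tested.

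**Figure D1:**
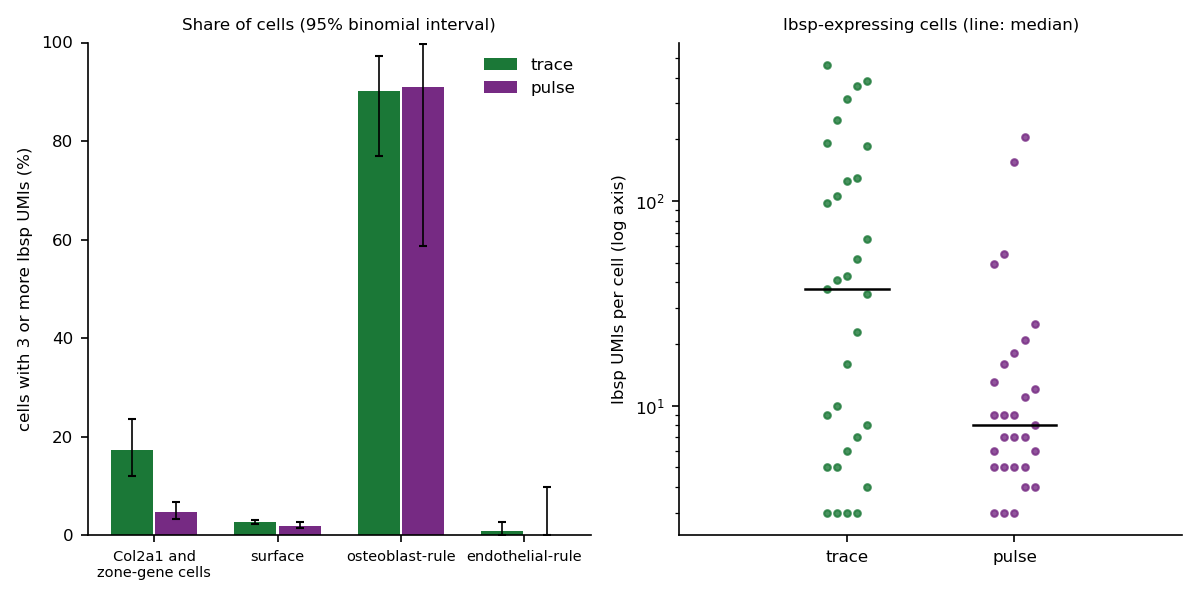
Left, share of cells with 3 or more Ibsp UMIs (%, bars; whiskers are exact binomial 95% intervals) in each cell class, trace beside pulse. Right, Ibsp UMIs of each Ibsp-expressing cell on a log axis, with the median as a line. The trace cells run from 3 to 463 with a median of 37 and the pulse cells from 3 to 206 with a median of 8, so the ranges overlap.

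The markers given for the cell type besides Ibsp are Col2a1, Matn3, Chad and Serpina1a. The rule used Col2a1 and Matn3, so only Chad and Serpina1a could check the label. Levels are in CPM, a gene's UMIs summed over a group's cells per 1000000 of that group's UMIs. Chad, the gene of the matrix protein chondroadherin, went with the label, with 5495 CPM in Ibsp-expressing and 2920 CPM in Ibsp 0 trace cells, and 2353 CPM in Ibsp-expressing and 603 CPM in Ibsp 0 pulse cells. In pulse, 438 of the 620 Chad UMIs of Ibsp-expressing cells lay in the 15 cells with 0 or 1 Matn3 UMI. Serpina1a, which encodes an alpha-1-antitrypsin, went against the label. In trace it had 56.4 CPM in Ibsp-expressing cells and 466 CPM in Ibsp 0 cells, 8.27-fold lower, and in pulse it was near 0 in both, with 2 and 16 UMIs. The cells are therefore called by their rule here, and not by a Serpina1a-bearing type.

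The zone genes, which the rule used, stood at like or lower levels in the Ibsp-expressing cells. Matn3 (matrilin-3) had 338 CPM in Ibsp-expressing and 608 CPM in Ibsp 0 trace cells, and 1362 and 1452 CPM in the same groups of pulse cells. Many of the cells sat at the limit of the rule. Exactly 3 of the 6 zone genes were detected in 11 of 31 Ibsp-expressing trace cells (35.5%) and 20 of 132 Ibsp 0 trace cells (15.2%). In pulse it was 15 of 29 Ibsp-expressing cells (51.7%) and 51 of 564 Ibsp 0 cells (9.04%), while 11 of the 29 had all 6.

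The Ibsp-expressing pulse cells differed among themselves by Matn3, a split made after their values were seen and given as description. Matn3 was at 0 or 1 UMI in 15 of the 29 cells (51.7%), against 95 of 564 Ibsp 0 pulse cells (16.8%). In these 15 cells Sparc, the gene of a collagen- and calcium-binding matrix protein, took 0.143, 9.87 and 16.0% of a cell's UMIs at the lowest, median and highest, against 0.780, 1.51 and 3.82% in the 14 cells with more Matn3. The summed levels were 87413 CPM in the Matn3-low and 18200 CPM in the Matn3-high cells for Sparc, 5542 and 987 CPM for Chad, and 3783 and 1036 CPM for Bmp2, a bone morphogenetic protein. Nos2, the inducible nitric oxide synthase gene, had 810 CPM in the Matn3-low cells and 5.42 CPM in the Matn3-high cells, and all 27 Cxcl1 UMIs were in the Matn3-low cells. Some genes of mineral and maturation lay on the other side. Of the 164 Alpl UMIs of the Ibsp-expressing pulse cells, 161 were in the Matn3-high cells, as were all 34 of Panx3 and 104 of 107 of Pth1r, but Spp1 had 3239 CPM in the Matn3-low and 450 CPM in the Matn3-high cells. Ibsp itself was at 2708 CPM in the Matn3-low and 2564 CPM in the Matn3-high cells. The Ibsp 0 pulse cells showed part of the same divide. Their Matn3-low and Matn3-high cells had 395 and 52.6 CPM of Nos2, 987 and 414 CPM of Bmp2, 635 and 70.3 CPM of Spp1, 17.9 and 101 CPM of Alpl, 11.9 and 40.8 CPM of Panx3, and 39.7 and 175 CPM of Pth1r. Sparc was level there, at 16383 and 16910 CPM, and Chad and Cxcl1 were nearly so, at 705 and 589 CPM and at 101 and 89.2 CPM. Median depth also differed, at 4566 UMIs per Matn3-low cell and 14599 UMIs per Matn3-high cell, and its part in the split was not tested.

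The trace cells were less divided for Sparc, Alpl and Panx3. In the 20 trace cells with Matn3 at 0 or 1 and the 11 with more, Sparc was at 20148 and 26391 CPM, Alpl at 637 and 848 CPM, and Panx3 at 111 and 150 CPM. Nos2 and Cxcl1 had no UMI in either. Other genes did divide them. Col10a1 had 66.7 CPM in the Matn3-low and 1377 CPM in the Matn3-high trace cells, Timp3 808 and 2101 CPM, Pth1r 341 and 680 CPM, Bglap 682 and 291 CPM, and Ibsp 15161 and 8361 CPM. All 26 Mmp13 UMIs were in the Matn3-low trace cells.

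**Figure D2:**
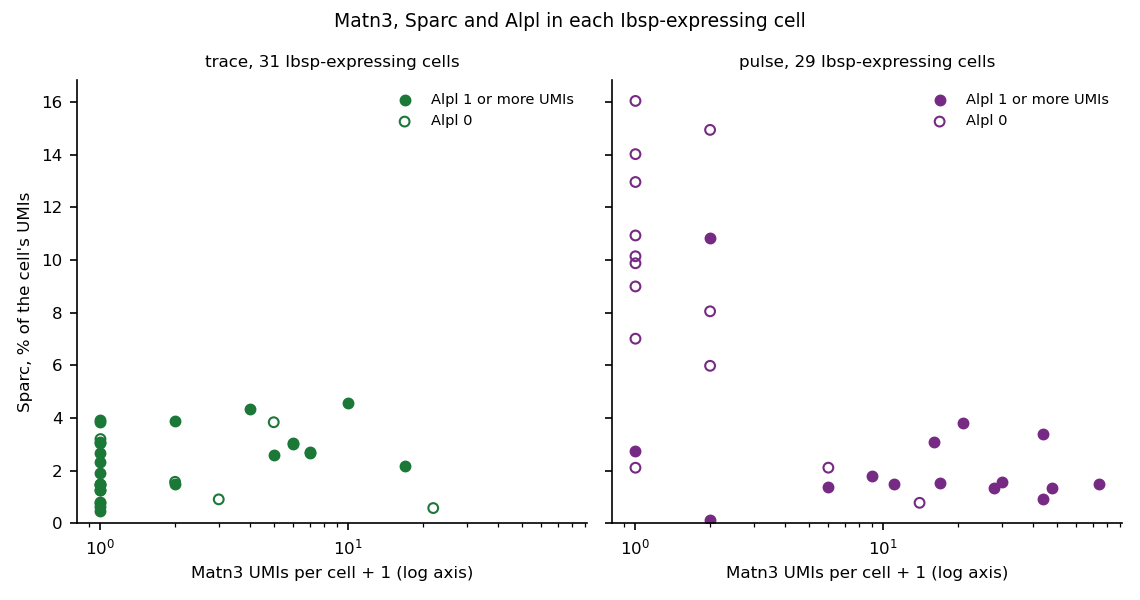
Each point is 1 Ibsp-expressing cell, with Matn3 UMIs plus 1 on a log axis against the percent of the cell's UMIs that are Sparc. Filled points have an Alpl UMI. In trace no cell exceeds 4.57% Sparc, whereas in pulse cells with Matn3 at 0 or 1 reach 16.0% and mostly lack Alpl.

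Alpl, Spp1 and Bglap, genes of matrix mineralisation, and Panx3 and Pth1r, genes of chondrocyte maturation, were higher by 2-fold or more in the Ibsp-expressing cells of both libraries. A gene was counted as measured at 20 CPM and 20 UMIs in at least 1 group, and as higher or lower past 2-fold. In trace, 155 of 5295 measured genes were higher in Ibsp-expressing cells (2.93%) and 678 were lower (12.8%). In pulse, 245 of 6171 were higher (3.97%) and 636 were lower (10.3%). The Ibsp 0 groups hold more UMIs, so this floor admits genes that are high there more readily. At a mean of 100 CPM over both groups, an alternative added after the data were seen, 3.1% were higher and 4.55% lower in trace (7.65% in all), and 5.98% higher and 2.72% lower in pulse (8.71% in all). Of the 18 mineral-binding matrix genes besides Ibsp, 12 were measured in each library. In trace 5 were higher and 1, the phosphate transporter gene Slc20a2, was lower, with a median log2 ratio of 0.29 against -0.16 over all measured genes. In pulse 7 were higher and none was lower, with a median of 1.12 against -0.15.

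Alpl counted from 0 through a median of 4 to 32 UMIs per Ibsp-expressing trace cell, and from 0 through 0 to 15 per Ibsp 0 trace cell. In pulse it ran from 0 through 1 to 42 in Ibsp-expressing cells and from 0 through 0 to 21 in Ibsp 0 cells. The ranges overlapped in both libraries. The summed level was 733 CPM in Ibsp-expressing and 127 CPM in Ibsp 0 trace cells, a log2 ratio of 2.53 (5.79-fold, interval 4.61 to 7.30), and 622 CPM and 91.6 CPM in the same groups of pulse cells, a log2 ratio of 2.76 (6.80-fold, 5.63 to 8.17). An Alpl UMI was seen in 77.4% of Ibsp-expressing and 31.1% of Ibsp 0 trace cells, in 51.7% and 25.9% of the pulse cells, and in 2.65% of endothelial cells of trace and none of pulse. Without cells that held a UMI of Bglap, Bglap2, Ifitm5, Dmp1, Phex or Sp7, the Alpl ratio was 2.99 over the remaining 11 trace cells and -0.24 over the remaining 12 pulse cells. In pulse, Bglap was seen in 8 of the 14 Matn3-high cells, which held 161 of the 164 Alpl UMIs, and in 3 of the 15 Matn3-low cells. The removal thus overlaps the split by Matn3 and depth, and the part of each was not tested.

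Panx3, a channel gene of maturing chondrocytes and osteoblasts, had 129 CPM in Ibsp-expressing and 18.1 CPM in Ibsp 0 trace cells, a log2 ratio of 2.83, and 129 and 37.4 CPM in pulse cells, a log2 ratio of 1.79. No Panx3 UMI was found in endothelial cells of either library, and surface cells had 0.0813 CPM in trace and 0.147 CPM in pulse. Smpd3, whose neutral sphingomyelinase is needed for mineral in mouse cartilage and bone, had 157 CPM in Ibsp-expressing and 20.0 CPM in Ibsp 0 trace cells (log2 ratio 2.98), and 121 and 62.8 CPM in pulse cells (0.95, under 2-fold). Fam20c, the kinase gene for secreted mineral-binding phosphoproteins, was higher in pulse alone by this count, with log2 ratios of -0.35 in trace and 1.70 in pulse, and that difference was not tested.

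Spp1 and Bglap were also higher, more unevenly between cells. Spp1 had 713 CPM in Ibsp-expressing and 235 CPM in Ibsp 0 trace cells (log2 ratio 1.60), and 1287 and 136 CPM in pulse cells (3.24). Without cells with an osteoblast marker UMI the Spp1 ratio was -0.24 in trace and 0.50 in pulse. Bglap had 504 CPM in Ibsp-expressing and 151 CPM in Ibsp 0 trace cells (1.74), and 190 and 44.6 CPM in pulse cells (2.09). A Bglap UMI was present in 16 of 31 trace and 11 of 29 pulse cells, and 3 trace and 7 pulse cells had no UMI of Alpl, Spp1 or Bglap. Endothelial cells had Bglap at 0 CPM in trace and 24.0 CPM in pulse. Bglap and Bglap2 are near-identical copies, so how their reads were split is uncertain.

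The neighbours of Ibsp on chromosome 5 were not all detected. Spp1 starts 135.8 kb downstream of Ibsp, Mepe 26.04 kb downstream and Dmp1 at -101.7 kb, upstream, in GRCm38.p6, and all 3 encode mineral-binding phosphoproteins. Dmp1 and Mepe, which are best known from osteocytes, had 0 UMIs in the Ibsp-expressing cells of both libraries. Osteoblast-rule cells, whose rule includes Dmp1, had 706 Dmp1 UMIs in trace and 83 in pulse. Mepe reached only 1 UMI there, so its absence is not detectable at this depth. Ifitm5, an osteoblast membrane protein gene, had 1 UMI in trace and 0 in pulse, and Phex, the phosphate-regulating endopeptidase gene, had 2 in trace and 17 in pulse. Sp7, which encodes the osteoblast factor osterix, was seen in 9 of 31 Ibsp-expressing and 15.9% of Ibsp 0 trace cells, and in 8 of 29 and 14.7% of pulse cells.

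**Figure D3:**
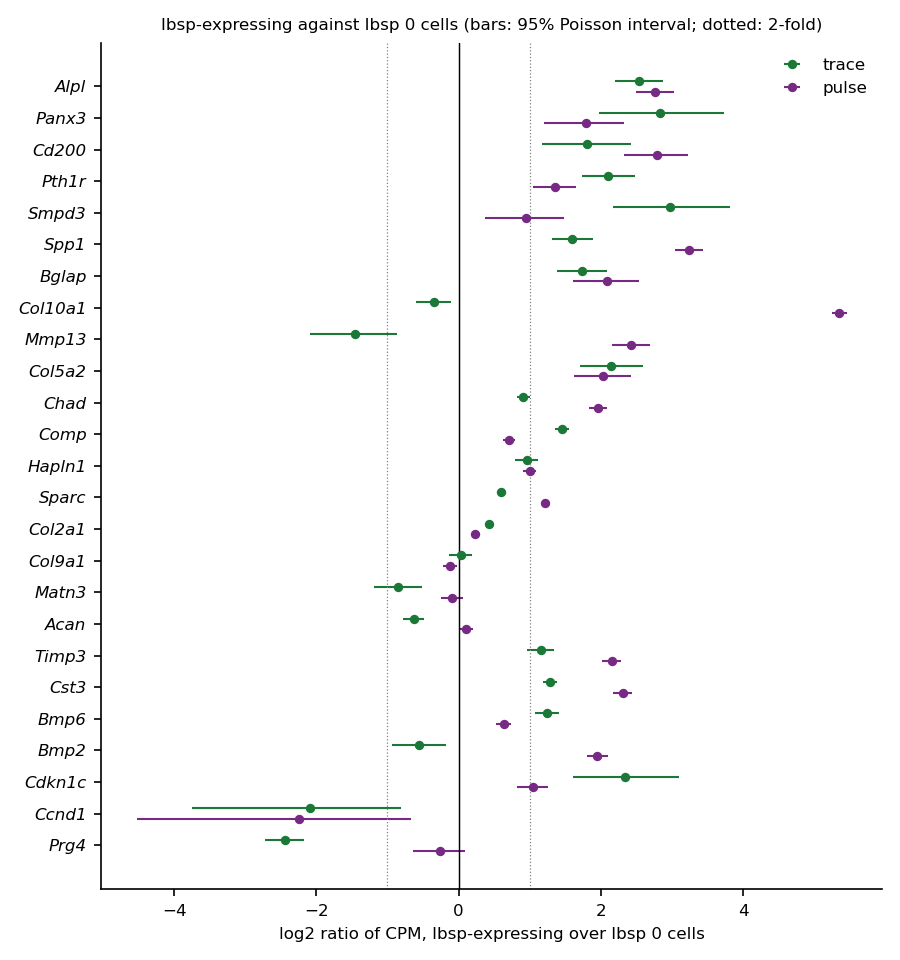
Log2 ratio of CPM, Ibsp-expressing over Ibsp 0 cells, for 25 genes, trace above pulse in each row. Bars are exact Poisson 95% intervals, and dotted lines mark 2-fold. Alpl, Panx3, Cd200, Pth1r, Spp1, Bglap and Col5a2 lie past 2-fold in both libraries, and Col10a1 and Mmp13 lie on opposite sides of 0.

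Levels were higher at more Ibsp UMIs for some genes. With cells of 0, 1 to 2, 3 to 9 and 10 or more Ibsp UMIs taken in turn, Alpl was at 127, 360, 338 and 954 CPM in trace and at 91.6, 146, 536 and 783 CPM in pulse. Cd200 was at 48.5, 65.4, 158 and 176 CPM in trace and at 33.0, 79.7, 181 and 315 CPM in pulse, with each step up. Spp1 did not follow in pulse, where cells with 1 to 2 Ibsp UMIs had the most, 2967 CPM. In pulse the share of cells with an Alpl UMI went from 61.1% at 3 to 9 to 36.4% at 10 or more Ibsp UMIs. The bins were cut on Ibsp, and depth can move a cell between them. Median UMIs per cell at 0, 1 to 2 and 3 or more Ibsp UMIs were 7402, 6904 and 7426 in trace. In pulse they were 7137, 9393 and 8094, so depth did not rise at each step.

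**Figure D4:**
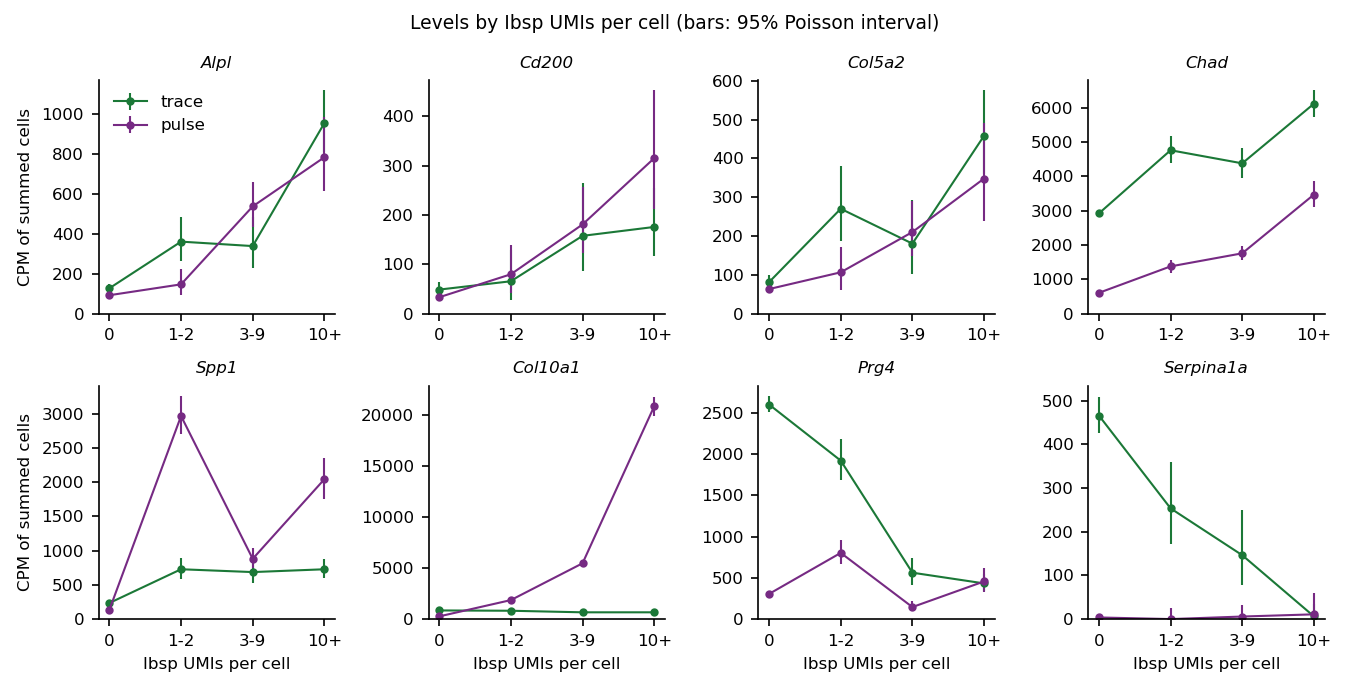
CPM of summed cells for 8 genes in cells of 0, 1 to 2, 3 to 9 and 10 or more Ibsp UMIs, trace and pulse, with Poisson 95% intervals. Alpl reaches 954 CPM in trace and 783 CPM in pulse in the highest bin. Summed Col10a1 climbs in pulse only, and summed Prg4 and Serpina1a decline in trace. In the highest pulse bin, the cells with 206 and 156 Ibsp UMIs hold 28 and 42 of 72 Alpl UMIs. They also hold 499 and 1302 of its 1921 Col10a1 UMIs.

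Hypertrophic chondrocyte genes were higher in pulse more than in trace, a difference that was not tested. Of the 16 listed, 14 were measured in each. In trace 5 were higher in Ibsp-expressing cells and 1 was lower (median log2 ratio 0.28), and in pulse 9 were higher and none was lower (median 1.67), against -0.16 and -0.15 over all measured genes. The shares over all measured genes were 2.93% higher and 12.8% lower in trace, and 3.97% and 10.3% in pulse. Col10a1, which encodes the type X collagen that defines hypertrophy, counted from 0 through a median of 18 to 1302 UMIs per Ibsp-expressing pulse cell and from 0 through 0 to 209 per Ibsp 0 pulse cell. Its summed pulse level was 10854 CPM in Ibsp-expressing and 265 CPM in Ibsp 0 cells, a log2 ratio of 5.36 (40.9-fold, interval 38.2 to 43.9). The single highest cell gave 45.5% of those UMIs, and without the top cell of each group the ratio was 4.77. In trace Col10a1 had 665 CPM in Ibsp-expressing and 848 CPM in Ibsp 0 cells, a log2 ratio of -0.35. There 1 Ibsp 0 cell gave 62.6% of the UMIs, and the ratio without top cells was 0.46. A Col10a1 UMI was seen in 35.5% of Ibsp-expressing and 15.2% of Ibsp 0 trace cells and in 75.9% and 19.1% of pulse cells, with 9.85% of trace and 2.78% of pulse endothelial cells as background.

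Pth1r, the receptor for parathyroid hormone-related protein, which holds back hypertrophy in the growth plate, had 496 CPM in Ibsp-expressing and 115 CPM in Ibsp 0 trace cells (log2 ratio 2.11) and 406 and 159 CPM in pulse cells (1.35). Without cells with an osteoblast marker UMI its pulse ratio was -2.91, a removal that overlaps the Matn3 split. Cd200, a surface glycoprotein gene, had 169 CPM in Ibsp-expressing and 48.5 CPM in Ibsp 0 trace cells (1.80) and 228 and 33.0 CPM in pulse cells (2.79). Cd200 is not particular to cartilage, since endothelial cells had 257 CPM in trace and 417 CPM in pulse. Across all alternative settings run its ratio stayed between 1.50 and 2.50 in trace and between 2.41 and 3.81 in pulse.

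Other genes of the hypertrophic list rested on single cells. Mmp13, the collagenase of late hypertrophic cartilage, had 105 CPM in Ibsp-expressing and 286 CPM in Ibsp 0 trace cells (log2 ratio -1.45) and 596 and 111 CPM in pulse cells (2.43), with 88.5% and 75.2% of the Ibsp-expressing cells' UMIs in 1 trace and 1 pulse cell. Runx2, a transcription factor gene of osteoblasts and hypertrophic cells, had log2 ratios of -0.46 in trace and 1.66 in pulse, where 1 cell gave 55.8% of UMIs and the value without top cells was 0.53. Mef2c, another factor gene of this programme, had 0.90 in trace and 1.67 in pulse. No Alpl, Cd200 or Panx3 UMI was found in only 2 of the 31 trace and 3 of the 29 pulse cells. The same count was not made in Ibsp 0 cells. Taken singly, Alpl, Cd200 and Panx3 were seen in 31.1, 18.2 and 9.09% of Ibsp 0 trace cells. In Ibsp 0 pulse cells they were seen in 25.9, 13.1 and 15.4%.

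Several genes of the osteoblast list were higher too. Of its 13 genes, 8 were measured in each library. In trace 7 were higher and none was lower (median log2 ratio 1.56), and in pulse 5 were higher and none was lower (2.06). The share higher over all measured genes was 2.93% in trace and 3.97% in pulse. Col5a2, a fibrillar collagen chain gene, had 359 CPM in Ibsp-expressing and 80.9 CPM in Ibsp 0 trace cells (2.15) and 258 and 63.0 CPM in pulse cells (2.03). It was detected in 83.9% of Ibsp-expressing and 28.8% of Ibsp 0 trace cells and in 86.2% and 19.3% of pulse cells. Col1a1, the main collagen chain of bone, had 387 CPM in Ibsp-expressing and 131 CPM in Ibsp 0 trace cells (1.56) and 224 and 17.4 CPM in pulse cells (3.68). A UMI of Col1a1 was absent from 25 of 31 trace and 26 of 29 pulse cells, and 1 cell gave 76.3% of the pulse UMIs. Without the 4 trace cells and 1 pulse cell with 10 or more Col1a1 UMIs, the Col1a1 ratio was -0.56 in trace, the Bglap2 ratio -0.45 and the Bglap ratio 0.79, while Alpl kept 2.69 in trace and 2.85 in pulse.

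The cells were also set beside osteoblast-rule cells per Ibsp UMI, a denominator on which the Ibsp-expressing cells were selected. Osteoblast-rule cells were selected on Col1a1 and on markers that include Bglap. The Col1a1 and Bglap gaps are thus description only. Per 100 Ibsp UMIs, Ibsp-expressing trace cells had 3.21 Col1a1 UMIs and the osteoblast-rule trace cells 690, and Ibsp-expressing pulse cells had 8.59 and the osteoblast-rule pulse cells 240. For Bglap the values were 4.18 in Ibsp-expressing and 91.1 in osteoblast-rule trace cells, and 7.28 and 64.6 in pulse. Alpl was at 6.08 in Ibsp-expressing and 5.11 in osteoblast-rule trace cells, and at 23.9 and 12.6 in pulse. Spp1 was at 5.91 and 315 in trace but at 49.3 and 11.9 in pulse, and Sparc at 191 and 301 in trace but at 1494 and 212 in pulse. As levels, Alpl was at 733 CPM in Ibsp-expressing and 385 CPM in osteoblast-rule trace cells, and at 622 and 1074 CPM in pulse. A UMI of the osteoblast markers Bglap, Bglap2, Ifitm5, Dmp1, Phex or Sp7 was present in 20 of 31 Ibsp-expressing (64.5%) and 32.6% of Ibsp 0 trace cells and in 17 of 29 (58.6%) and 33.5% of pulse cells. The part of osteoblast RNA in the ratios was not tested.

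**Figure D5:**
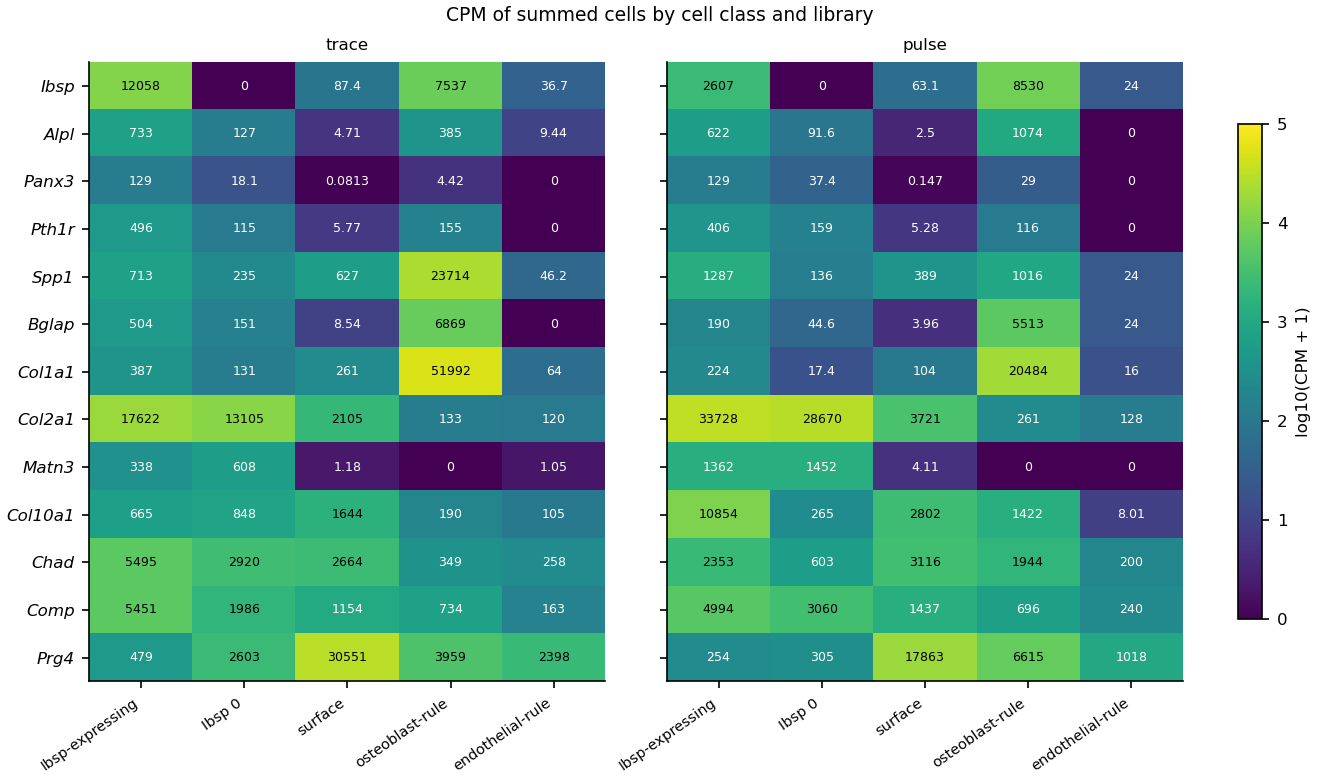
CPM of summed cells, coloured as log10(CPM + 1), for 13 genes in 5 cell classes, trace and pulse. Ibsp-expressing cells combine Ibsp at 12058 and 2607 CPM with Col2a1 at 17622 and 33728 CPM, and were selected on both. Osteoblast-rule cells have Col1a1 at 51992 and 20484 CPM and Col2a1 at 133 and 261 CPM. They were selected for high Col1a1 and low Col2a1.

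Collagens of cartilage lay close to the Ibsp 0 level. All 10 listed chains, those of collagens II, VI, IX, XI and XXVII, were measured in each library and none passed 2-fold, with median log2 ratios of 0.04 in trace and -0.09 in pulse. Col2a1, used by the rule, had 17622 CPM in Ibsp-expressing and 13105 CPM in Ibsp 0 trace cells and 33728 and 28670 CPM in pulse cells. Acan, the gene of the proteoglycan aggrecan, had log2 ratios of -0.63 in trace and 0.10 in pulse, and Hapln1, whose link protein ties aggrecan to hyaluronan, had 0.96 in trace and 1.00 in pulse. Genes of collagen folding and secretion stayed level as well, with 0 higher and 1 lower of 29 measured in trace and of 28 in pulse. For both lists, the shares over all measured genes were 2.93% higher and 12.8% lower in trace, and 3.97% and 10.3% in pulse.

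Some non-collagenous matrix genes were higher. Comp, a pentameric collagen-binding protein gene, counted from 5 through a median of 40 to 134 UMIs per Ibsp-expressing and from 0 through 11 to 86 per Ibsp 0 trace cell. Its level was 5451 CPM in Ibsp-expressing and 1986 CPM in Ibsp 0 trace cells (log2 ratio 1.46) and 4994 and 3060 CPM in pulse cells (0.71). Sparc had 22997 CPM in Ibsp-expressing and 15187 CPM in Ibsp 0 trace cells (0.60) and 38962 and 16848 CPM in pulse cells (1.21). With 4 or more zone genes required, an alternative added after the data were seen that left 20 trace and 14 pulse cells, the pulse ratios were 0.19 for Sparc and 0.76 for Chad, and in trace they were 0.53 and 0.88. Prelp, a leucine-rich proteoglycan gene, was lower in trace (-1.91) and had -0.51 in pulse, and Cilp, a cartilage intermediate layer gene, had -1.77 in trace and -0.36 in pulse. Lox, whose enzyme crosslinks collagen, had 0.91 in trace and 3.60 in pulse.

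Of 18 serpins and protease inhibitors, 10 were measured in trace, with 2 higher and 5 lower. In pulse 7 were measured, with 2 higher and none lower. The higher ones were Cst3 and Timp3 in both. All measured genes gave 2.93% higher and 12.8% lower in trace, and 3.97% and 10.3% in pulse. Cst3 (cystatin C) was at 5346 CPM in Ibsp-expressing and 2197 CPM in Ibsp 0 trace cells (log2 ratio 1.28) and at 2247 and 453 CPM in pulse cells (2.31). Timp3, which binds matrix and blocks metalloproteinases, was at 1398 and 629 CPM in the trace groups (1.15) and at 2232 and 500 CPM in the pulse groups (2.16), Ibsp-expressing cells given before Ibsp 0 cells. Both log2 ratios stayed above 1 under every setting run. The alpha-1-antitrypsin genes were lower in trace, with log2 ratios of -3.05 for Serpina1a and -2.20 for Serpina1d, and Serpina1b had 3 UMIs in Ibsp-expressing and 316 in Ibsp 0 trace cells (ratio 0.0402, interval 0.00825 to 0.119). These genes are near-identical copies, so the split among them is uncertain. A Serpina1a UMI was seen in 9.68% of Ibsp-expressing and 45.5% of Ibsp 0 trace cells and in no endothelial cell, and in trace cells of 10 or more Ibsp UMIs its level was 6.27 CPM. Serpine2, an inhibitor of thrombin and plasminogen activators, had -1.96 in trace and 0.69 in pulse.

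Surface-zone genes differed between the libraries by count. Of 14 listed, 13 were measured in trace with 0 higher and 4 lower (median log2 ratio -0.59), and 11 in pulse with 3 higher, Erg, Cytl1 and Ecrg4, and 1 lower (0.08). The difference between the libraries was not tested. Over all measured genes, 2.93% were higher and 12.8% lower in trace, and 3.97% and 10.3% in pulse. GEO's label calls the sorted cells superficial, but Prg4, the lubricin gene that defines that zone, had 479 CPM in Ibsp-expressing, 2603 CPM in Ibsp 0 and 30551 CPM in surface cells of trace, and 254, 305 and 17863 CPM in those of pulse. Endothelial cells had 2398 CPM of Prg4 in trace and 1018 CPM in pulse. The summed level of Ibsp 0 trace cells thus lay near that of endothelial cells, and the other 3 levels lay below it. The part of background in these levels was not tested. Prg4 was uneven between Ibsp 0 trace cells, with a median of 1 and a highest of 572 UMIs at Matn3 0 or 1. Those with more Matn3 had a median of 1 and a highest of 365. A Prg4 UMI was seen in 65.2% of Ibsp 0 trace cells. It was seen in 90.9 and 80.0% of trace cells with 3 to 9 and 10 or more Ibsp UMIs. In pulse these shares were 26.4, 55.6 and 63.6%. Clu, a secreted chaperone gene, was lower in both libraries (-1.19 in trace, -1.79 in pulse).

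Inflammatory genes were lower by count in trace, and the difference from pulse was not tested. Of 19 complement and innate immunity genes, 7 were measured in trace with 0 higher and 6 lower (median log2 ratio -1.42). In pulse 4 were measured with none past 2-fold (0.61). The share lower over all measured genes was 12.8% in trace, and 14.3% passed 2-fold either way in pulse. No Cxcl1 UMI was found in Ibsp-expressing trace cells, against 300 CPM in Ibsp 0 trace cells, but endothelial trace cells had 388 CPM. Nos2, which is on no list, likewise had 0 UMIs in Ibsp-expressing trace cells. Its summed level was at least 10.2-fold below the 123 CPM of Ibsp 0 cells, with the limit set at 3 UMIs over the group. That limit takes UMIs as spread evenly over cells, which they were not. Nos2 was seen in 5 of 58 Ibsp 0 trace cells with Matn3 at 0 or 1 and 11 of 74 with more. Cxcl1 was seen in 14 and 6 of these cells, and single cells gave 100 and 114 of its 315 UMIs. In pulse Nos2 had 247 CPM in Ibsp-expressing and 92.7 CPM in Ibsp 0 cells (1.41), and with 4 or more zone genes required that ratio was -3.32.

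Signalling genes were taken by pathway. Over all measured genes, 2.93% were higher and 12.8% lower in trace, and 3.97% and 10.3% in pulse. In the bone morphogenetic protein and transforming growth factor-beta list, 3 of 23 measured were higher and 1 lower in trace. In pulse 4 of 20 were higher and 2 lower. The list's median log2 ratios were -0.12 in trace and 0.20 in pulse, against -0.16 and -0.15 over all measured genes. Bmp6, a ligand gene, had log2 ratios of 1.24 in trace and 0.64 in pulse, Bmp2 had -0.55 and 1.95, and Chrdl1, an antagonist gene, had 1.41 and 0.62. Id2, a target of this signal, had -0.94 in trace and -2.58 in pulse. In the hedgehog and parathyroid hormone-related protein list, 1 of 7 was higher and 3 lower in trace, and 1 of 6 higher and 2 lower in pulse. All 3 pulse calls, Pth1r higher and Gli2 and Hhip lower, were made in trace too. Gli2, a hedgehog transcription factor gene, had 3 UMIs in the Ibsp-expressing cells of each library, for ratios of 0.276 (interval 0.0549 to 0.859) in trace and 0.480 (0.0974 to 1.44) in pulse. Hhip, a hedgehog-binding inhibitor gene, had 0 UMIs in Ibsp-expressing trace cells, at least 3.15-fold below Ibsp 0 cells, and 3 UMIs in pulse (ratio 0.331, 0.0675 to 0.986).

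Of the Wnt genes, 1 of 10 measured was higher and 1 lower in trace, and 4 of 11 were higher and none lower in pulse. All measured genes gave 2.93% higher and 12.8% lower in trace, and 3.97% and 10.3% in pulse. The list's median log2 ratios were 0.07 in trace and 0.03 in pulse, against -0.16 and -0.15 over all measured genes. Wif1, a secreted Wnt inhibitor gene, had log2 ratios of 0.60 in trace and 2.86 in pulse. Tcf7l2, a factor gene of the pathway, had 0.57 and 2.98, with 67.6% of its pulse UMIs in 1 cell. Frzb, another secreted inhibitor gene, had 2.08 in trace, with 66.7% of its UMIs in 1 cell, and 0.34 with 4 or more zone genes required. Tnfrsf11b, whose product osteoprotegerin holds back osteoclasts, was higher in both, at 560 CPM in Ibsp-expressing and 235 CPM in Ibsp 0 trace cells (1.25) and 664 and 197 CPM in pulse cells (1.75), though the pulse ratio was 0.12 with 4 or more zone genes required.

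Of 9 genes of cyclin-dependent kinase inhibitors and D cyclins, 5 were measured in each library. In trace 1 was higher and 1 lower, and in pulse 1 was higher and 2 lower. Over all measured genes, 15.7% passed 2-fold either way in trace and 14.3% in pulse. Cdkn1c was higher and Ccnd1 lower in both libraries. Cdkn1c, an inhibitor of cyclin-dependent kinases, had 145 CPM in Ibsp-expressing and 28.5 CPM in Ibsp 0 trace cells (log2 ratio 2.35) and 740 and 358 CPM in pulse cells (1.05). Without cells with an osteoblast marker UMI the pulse ratio was -2.16. Ccnd1 (cyclin D1) had 5 UMIs in Ibsp-expressing trace cells and 3 in Ibsp-expressing pulse cells, for ratios of 0.235 (interval 0.0746 to 0.570) and 0.212 (0.0434 to 0.628). The rule caps other cycle genes, not these.

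Metabolic and stress lists were mixed. Of 22 hypoxia and glycolysis genes, 0 of 18 measured were higher and 1 lower in trace and 0 of 20 higher and 2 lower in pulse. Of 19 lipid and sterol genes, 1 of 15 was higher and 4 lower in trace, the higher one being Insig1, a brake on sterol synthesis (1.50), and none of 19 passed in pulse. Of 21 iron, metal and antioxidant genes, none of 15 was higher and 2 were lower in trace, and 2 of 16 were higher and 4 lower in pulse. Of 19 immediate early and heat shock genes, all measured, 2 were higher and 1 lower in trace and none was higher and 2 were lower in pulse. Over all measured genes 15.7% passed 2-fold in either direction in trace and 14.3% in pulse. Mt1, a metallothionein gene, had 403 CPM in Ibsp-expressing and 778 CPM in Ibsp 0 trace cells (-0.95) and 3674 and 10132 CPM in pulse cells (-1.46). Csgalnact1, which starts chondroitin sulfate chains, was lower in both (-1.13 in trace, -1.20 in pulse), as was Amotl2, a target of YAP (-1.35 in trace, -1.27 in pulse). Trpv4, a mechanosensitive channel gene, had -1.02 in trace and -0.45 in pulse.

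The calls of the libraries were compared gene by gene. Of 4996 genes measured in both, 31 were higher in each (0.62%), Ibsp among them, which is 21.7% of the 143 trace calls and 17.2% of the 180 pulse calls over these genes. Another 90 were lower in each (1.8%), which is 15.4% of 583 trace calls and 23.9% of 376 pulse calls. Over all genes measured in each library, a wider set than these, 2.93% were higher and 12.8% lower in trace. In pulse 3.97% were higher and 10.3% lower. Ibsp is a shared call by the rule. Opposite calls were made for 13 genes higher in trace and lower in pulse (0.26%) and 29 the other way (0.58%). The shared higher genes included Alpl, Panx3, Cd200, Pth1r, Spp1, Bglap, Col5a2, Cdkn1c, Timp3, Cst3 and Tnfrsf11b, and the shared lower ones Inhba, an activin chain gene (-1.94 in trace, -1.26 in pulse), and Chil1, a chitinase-like protein gene (-3.17 and -1.08).

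Among the highest trace ratios, several rested on single cells. Igfbp5, which encodes an insulin-like growth factor binding protein, had a log2 ratio of 3.98 with 87.8% of UMIs in 1 cell, B4galnt3, a glycosyltransferase gene, had 3.17 with 88.2%, Mmp3, a stromelysin gene, had 1.95 with 94.3%, and Cryab, a small heat shock protein gene, had 2.54 with 66.5%. UMIs of Klf2, Slc43a2, Srgap1 and Lama4 came from more cells, in 38.7, 45.2, 45.2 and 41.9% of Ibsp-expressing trace cells, with trace ratios of 2.08, 2.08, 2.27 and 1.92 and pulse ratios of -1.02, 0.61, 0.32 and 0.60. Without cells with an osteoblast marker UMI the trace ratio of Srgap1 was 0.19. Among the lowest, Pcdh9, a protocadherin gene, had -2.97 in trace and 1.17 in pulse, and Rbp4, the retinol binding protein gene, had -2.33 and 3.11. Rian, a long non-coding RNA of an imprinted locus, had -2.41 in trace and 0.44 in pulse. Tet2, Plxdc2, Plaur, Syne1 and Lrrc8d had trace ratios between -2.34 and -2.10.

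The Ibsp-expressing cells of trace and pulse were also set against each other. Of 2652 measured, 144 were higher in trace (5.43%) and 595 lower (22.4%), and at a mean of 100 CPM 5.12% were higher and 16.7% lower. The median log2 ratio was -0.39, and with ratios divided by that median 314 were higher and 351 lower. Ibsp had 12058 CPM in trace and 2607 CPM in pulse (log2 ratio 2.21, 4.62-fold, interval 4.26 to 5.03). Alpl had 733 CPM in trace and 622 CPM in pulse (0.24) and Comp 5451 and 4994 CPM (0.13). Chad was at 1.22 and Cst3 at 1.25, higher in trace, and Sparc at -0.76, Spp1 at -0.85 and Col2a1 at -0.94. The Ibsp 0 cells also differed between the libraries, with Chad at 2920 CPM in trace and 603 CPM in pulse. Cst3 was at 2197 and 453 CPM in these Ibsp 0 cells and Col2a1 at 13105 and 28670 CPM. Sparc was at 15187 and 16848 CPM there, and Spp1 at 235 and 136 CPM.

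Among the Ibsp-expressing cells, Col10a1 stood out as 16.3-fold lower in trace (log2 ratio -4.03, with 665 CPM in trace and 10854 CPM in pulse). Bmp2 (-2.72), Mmp13 (-2.51), Matn3 (-2.01) and Mt1 (-3.19) were lower too, and of 12 hypertrophic genes measured none was higher and 6 passed 2-fold downwards (median -1.09). Cryab (4.41), Clu (2.87), Selenow, a selenoprotein gene (2.72), and Cytl1, a cytokine-like cartilage gene (2.17), were higher in trace. Many of the lowest genes had 1 UMI in trace: for Pde11a, a phosphodiesterase gene with 100 UMIs in pulse, the ratio was 0.0106 (interval 0.000266 to 0.0605), for Tll1, a procollagen protease gene with 41, it was 0.0259 (0.000640 to 0.153), and for Matn1, the matrilin-1 gene with 36, it was 0.0295 (0.000727 to 0.175). Hdac9, a histone deacetylase gene, had 11 UMIs in trace and 281 in pulse (-4.59). Some of these genes differed likewise in Ibsp 0 cells. There Matn3 had 608 CPM in trace and 1452 CPM in pulse, Clu had 945 and 197 CPM, and Mt1, given above, was lower in trace. Selenow was level there, at 60.9 and 59.7 CPM. Others went the other way in Ibsp 0 cells, with Col10a1 at 848 and 265 CPM, Mmp13 at 286 and 111 CPM and Hdac9 at 177 and 105 CPM.

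Several of these differences stood beside library-wide ones. In Ibsp-expressing cells all 6 ribosomal RNA-associated transcripts were higher in trace, Gm42418 10.0-fold, and Xist had 102 UMIs in trace and 0 in pulse. In the same cells against Ibsp 0 cells of their own library, Gm42418 had log2 ratios of 0.08 in trace and 0.21 in pulse. The part of these differences in the trace to pulse ratios was not tested, and sex, age and time since tamoxifen cannot be told apart here.

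Markers of other cell types were few in the Ibsp-expressing cells, with exceptions. The 6 macrophage genes and the 6 endothelial genes had 0 UMIs in both libraries. Summed over their lists, neutrophil genes had 12 UMIs in trace and 0 in pulse, erythroid genes 3 and 1, B-lineage genes 8 and 13, mural cell genes 1 and 1, and osteoclast genes 5 and 5. Loose connective tissue fibroblast genes, of which Col3a1 alone was measured, had 149 CPM in Ibsp-expressing and 98.9 CPM in Ibsp 0 trace cells, and 98.7 and 30.7 CPM in pulse cells. Synovial lining genes had 729 CPM in Ibsp-expressing and 2953 CPM in Ibsp 0 trace cells, and 338 and 486 CPM in pulse cells. The part of these cell types in the results was not tested. By simulated-doublet scores, 3 of 31 Ibsp-expressing trace cells (9.68%) and 5.30% of Ibsp 0 trace cells were among the top 5% of their library, and 6 of 29 (20.7%) and 6.56% in pulse. Without the top 5%, Alpl kept 2.64 in trace and 2.70 in pulse, and Col10a1 kept 4.83 in pulse.

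The lineage label could not be read back from the cells' own RNA. Procr had 0 UMIs in Ibsp-expressing cells of both libraries (upper limit 11.2% of trace and 11.9% of pulse cells with a UMI, which is no limit on cells that express it), against 3 of 132 trace and 9 of 564 pulse Ibsp 0 cells, and 13.7% of trace and 9.84% of pulse surface cells. The Tdtomato transcript was seen in 9 of 31 Ibsp-expressing and 35.6% of Ibsp 0 trace cells, and in 7 of 29 and 17.7% of pulse cells. Endothelial cells held it in 21.6% in trace and 22.2% in pulse, at lower depth. The sort gate used red fluorescence, not this transcript, and Procr-CreER marks only cells in which the Procr promoter was active at tamoxifen and their descendants.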

How the data were processed

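For each library the authors deposited 1 matrix of UMI counts, raw and not normalized. Cell Ranger 7.1.0 made them per the file headers. The submitters' processing notes list Cell Ranger 3.0.1 and mm10 instead, and which holds is not known. Seurat, STAR, HTSeq and DESeq2 are in those notes without a role and were not used here. Whether intron reads were counted is not given in the sources used here.

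The members, gene lists and thresholds were chosen with earlier results of these data known. UMIs of the chosen cells were summed per library and divided by the group's total (CPM). Ratios carry exact conditional Poisson 95% intervals. A gene with 0 UMIs in a group was set against 3 UMIs over that group. The 2 libraries allow no test across samples, so no p-value is given and calls are past 2-fold. Alternatives changed the Ibsp, Col2a1, gene and mitochondrial thresholds, depth, doublets, osteoblast UMIs, scaling, cell weights and floors. The even floor, the removal of top cells, the Col1a1 limit and the stricter zone rule were added after the data were seen.

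Named genes were the rule's genes and markers, the 15 highest and 15 lowest trace ratios and the 10 highest and 10 lowest trace-over-pulse ratios at 100 CPM or more, and up to 4 members of each of the 40 lists. Acan, Bglap2, Bmp2, Col10a1, Cst3, Cytl1, Ecrg4, Erg, Fam20c, Hapln1, Id2, Inhba, Mef2c, Runx2, Slc20a2, Sparc, Spp1, Tcf7l2, Timp3 and Wif1 were named after their values were seen. Scrublet, run through scanpy 1.11.5, marked 0 cells at its own threshold in both libraries, which means that it did not work at that threshold, so only the rank of its scores was used, and doublets were not removed from the main values. Intervals came from scipy 1.17.1, tables from pandas 2.3.3 and numpy 2.4.6, and plots from matplotlib 3.10.9, under Python 3.11.15. The steps were tested on simulated data.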

Additional observations from a re-analysis of the deposited data

Results flagged for a closer look

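Genes named above whose ratios of Ibsp-expressing over Ibsp 0 cells passed 2-fold in opposite directions in the libraries are given here as log2 ratio in trace minus log2 ratio in pulse. The difference itself was not tested, since each library is 1 sample. Rbp4 differed by -5.44, Hdac9 by -5.34, Nos2 by -4.76, Pcdh9 by -4.15 and Mmp13 by -3.88, all lower in trace and higher in pulse. Klf2 differed by 3.10 and Selenow by 2.69, higher in trace and lower in pulse. For Hdac9 the Ibsp-expressing cells had 44.3 CPM in trace and 1066 CPM in pulse, and the Ibsp 0 cells 177 CPM and 105 CPM. With 4 or more zone genes required its pulse ratio was 0.02, no longer past 2-fold. For Mmp13, 1 cell held 88.5% of the trace and 1 cell 75.2% of the pulse UMIs. For Nos2, 64 of the 65 pulse UMIs lay in the 15 cells with Matn3 at 0 or 1.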

How the results depend on the processing

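No paired analysis was possible because each group is 1 library, and for the same reason no replicate could be left out. Of 2988 log2 ratios of named genes under alternative settings, 2347 stayed within the counting interval of the reported value. Another 619 moved beyond it, and 22 that had passed 2-fold changed sign. A floor changes which genes are counted and not a gene's ratio. All 177 ratios therefore stayed by construction at 10 CPM and 10 UMIs. The same holds for the 177 with no floor and the 177 at a mean of 100 CPM. The cause was not tested. Counts below moved by more than 1.5 times and shares beyond their interval. Thinned to 2000 UMIs, the pulse share was 3.05%, the calls higher and lower in trace 59 and 336, those higher in pulse 531, those of trace over pulse 78 and 127, and the trace Selenow ratio -0.20. Without cells with an osteoblast marker UMI (11 trace and 12 pulse cells left), the shares were 10.0% in trace and 3.00% in pulse, with 274 genes higher in trace, 665 higher and 967 lower in pulse, and 205 lower in trace over pulse. There the trace ratios were -2.22 for Col1a1, 0.12 for Mmp13 and -0.24 for Spp1. The pulse ratios were -0.24 for Alpl, -2.16 for Cdkn1c, -0.97 for Fam20c, 0.20 for Gli2, -0.41 for Hapln1, -3.06 for Mmp13 and -2.91 for Pth1r, and trace over pulse gave 0.11 for Matn3 and 4.27 for Mmp13. In pulse that removal overlaps the split by Matn3. Mmp3 in trace was -2.04 without the top 5% of doublet scores, -1.02 with 50 or more Col2a1 UMIs and -1.68 without top cells. Scaled by the median ratio, 267 genes were higher in trace, and 314 higher and 351 lower in trace over pulse. By the mean of each cell's CPM, 956 were lower in pulse. At 10 CPM and 10 UMIs the calls higher and lower were 338 and 1068 in trace, 418 and 1055 in pulse, and 343 and 1179 in trace over pulse. With no floor they were 863 and 1226, 1487 and 1281, and 814 and 1935, and at a mean of 100 CPM 45 and 66, 110 and 50, and 83 and 271. Without top cells they were 76 and 1041 in trace and 90 and 1400 in pulse. Without cells with 10 or more Col1a1 UMIs, trace Bglap2 was -0.45 and Col1a1 -0.56. With 4 or more zone genes, the pulse share was 2.59%, Mmp13 in trace 1.70, and in pulse Mmp3 -2.21, Nos2 -3.32 and Pcdh9 -0.42. The groups hold 31 and 29 cells of 1 library each, so levels under about 3 UMIs per group are not resolved and the spread between mice is unknown.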
